A study of Homo sapiens with 15 samples.

Results

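The 34 genes described here, DRAM1 and its paralog DRAM2 among them, belong to the core autophagy machinery and its regulators. They were measured by RNA-seq in H1299 cells. They are a list of gene symbols chosen by name, with earlier results of these data known, so shares of members called describe this list only. All 34 were found by their Ensembl identifiers among the 61552 gene rows of every library. H1299 is a human lung cancer cell line that lacks functional p53, so the overexpressed construct is the source of p53 in these cells. The series holds 15 libraries of total RNA in 5 groups of 3. In 2023, Ctrl cells carried a control vector and WT cells overexpressed wild-type p53. In 2022, cells overexpressed p53, LLPSEp53_1 or LLPSEp53_2. The labels do not state how the constructs were delivered, for how long they were expressed, what distinguishes the LLPSEp53 constructs from p53, or whether replicates were separate cultures. Among the p53 libraries, replicate 2 was collected in another batch than the others. Construct and year cannot be told apart between the years, so WT was compared with Ctrl, and the LLPSEp53 constructs with p53.

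Macroautophagy encloses cytoplasm in a double membrane, the autophagosome, which fuses with a lysosome. The ULK1 kinase complex starts the process, and the PIK3C3 lipid kinase complex with BECN1 marks the site where the membrane forms. ATG9A and ATG2 proteins supply and transfer lipid to it, and a ubiquitin-like conjugation system built from ATG12, ATG5, ATG16L1, ATG7 and ATG3 attaches LC3 and GABARAP proteins to it. TFEB is a transcription factor of lysosomal and autophagy genes. DRAM1 is a lysosomal membrane protein and an established target gene of p53.

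Promoter sequences were in hand for 30 of the 34 members, as 36 RefSeq windows around start sites on GRCh38.p14, and 4 sets are shown because they carry the motifs searched or belong to the members whose RNA changed most. Positions count from the start site as 0. The DRAM1 window spans chr12:101877545-101877574 on the + strand, and its capitals mark the best match to 2 p53 consensus half-sites in tandem. The TFEB window holds the 250 bases before the most upstream of 3 RefSeq start sites, at chr6:41735609-41735858 on the - strand, with the same kind of match in capitals. In the GABARAPL1 window, at chr12:10212633-10212662 on the + strand, the capitals mark a p53 consensus half-site. In the ATG3 window (chr3:112561963-112561992, - strand) and the ATG14 window (chr14:55411834-55411863, - strand), they mark CACGTG, a motif bound by TFEB and by many other factors. In the GENCODE 29 annotation, exons hold all 30 bases of the DRAM1, GABARAPL1 and ATG3 windows. They hold 25 of the 30 bases of the ATG14 window and 0 of the 250 of the TFEB window. Positions before the RefSeq start site can thus lie within annotated exons.
DRAM1: tttcgCAACAAGCCCGGGCAGCCCGcgccc
TFEB: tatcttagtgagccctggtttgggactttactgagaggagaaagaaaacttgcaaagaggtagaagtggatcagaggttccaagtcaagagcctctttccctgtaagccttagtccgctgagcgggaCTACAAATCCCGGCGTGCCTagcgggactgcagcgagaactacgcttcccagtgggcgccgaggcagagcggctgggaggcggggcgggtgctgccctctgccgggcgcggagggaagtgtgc
GABARAPL1: agggggaataAAACATGTTTaaatcttttt
ATG3: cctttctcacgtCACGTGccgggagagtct
ATG14: aaaacaaaatccCACGTGactggctctcct

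The tandem consensus has 20 letters, and DRAM1 matched 16 of them at best, from -30 to -11. Of all 35116 RefSeq promoter windows, 26% reached 16 or more, and the median window reached 15. TFEB matched 15 at each of its 3 start sites, a number reached by 70.5% of all windows. A complete tandem site was in 0.0171% of all windows and in none of the member windows. A complete half-site, searched on both strands, was in 6.63% of all windows and in 1 member, GABARAPL1, from -234 to -225. CACGTG, which reads the same on both strands, was in 7.26% of all windows and in 2 members, ATG14 from -21 to -16 and ATG3 from -18 to -13 and again from 5 to 10. The tandem site was searched without a spacer between its half-sites, and each window begins 250 bases before its start site. Sites with a spacer or outside the windows were not searched. These matches describe letters in the windows and say nothing of binding.

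Total counts were 16208538 to 19228748 per library in 2023 and 13535397 to 16438272 in 2022, of which the 34 members took 0.216% to 0.274%. In the fit of 2022, p53 replicate 2 has its own batch term and carries no weight, so p53 levels are the mean of replicates 1 and 3. Replicate 2 stood apart from the others in its counts (chi-square per degree of freedom of 112 and 99.8 against p53 replicates 1 and 3, and 6.76 to 42.5 between other libraries of a group). The p53 target CDKN1A was at 715 to 786 CPM (read counts scaled to a common library total) in WT and at most 250.7 CPM in Ctrl, and MDM2 at 247 to 299 CPM against 57.6 to 61.1 CPM. In 2022, CDKN1A was at 284.0 and 286 CPM in p53, 399 to 451 CPM in LLPSEp53_1 and 232 to 281 CPM in LLPSEp53_2. MDM2 was at 164.9 and 201.6, 153.9 to 233.8 and 125.3 to 165.4 CPM in these groups, so neither construct separated from p53. Neither gene passed an adjusted p of 0.05 against p53 in edgeR's quasi-likelihood test. CDKN1A in LLPSEp53_1 passed in 4 of 18 alternative settings. Keratin genes KRT8 and KRT18 and the vimentin gene VIM, all expressed by this line, stood at 700 to 1972 CPM in every library. Of the other markers chosen for a carcinoma line, CDH2 had group means of 52.9 to 63.0 CPM (without p53 replicate 2). The epithelial markers EPCAM and CDH1 were near 0, with group means of at most 1.30 and 0.187 CPM. Of 14 markers of blood, endothelial, mesenchymal and normal lung epithelial cells, PTPRC and HBB were at 0 throughout, and the highest level of any was 3.45 CPM, for COL1A1.

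All 34 members were expressed above the filter on low counts in both years. Per kilobase of exon, MAP1LC3B, the LC3 gene most often used as an autophagosome marker, was the most abundant member in Ctrl, at 39.8 CPM per kilobase. GABARAPL1, a GABARAP paralog, followed at 33.1, and VMP1, an endoplasmic reticulum lipid scramblase, at 26.7 CPM per kilobase. The median member was at 8.74 CPM per kilobase. At the low end stood ULK2 at 1.20, ATG16L2 at 0.760, TFEB at 0.518 and GABARAP at 0.364 CPM per kilobase. GABARAP had 8 to 81 counts per library, and 55.7% of its annotated exon bases are shared with exons of other genes, so its level is uncertain. ATG9A shares 38.8% of its exon bases with another gene on the same strand, and TFEB, AMBRA1, ATG2A and ULK1 share none.

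The coefficient of variation between replicates, taken over the 34 members, had a median of 5.19% in WT, 10.3% in Ctrl, 12.2% in LLPSEp53_1 and 8.42% in LLPSEp53_2. MAP1LC3B was the steadiest member in Ctrl, at 2.19%, and ATG10 the least steady, at 23.0%. The heat map of members in every library shows rows close to their reference in most places, with DRAM1 and TFEB standing out in WT and TFEB in both LLPSEp53 groups.

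**Figure D1:**
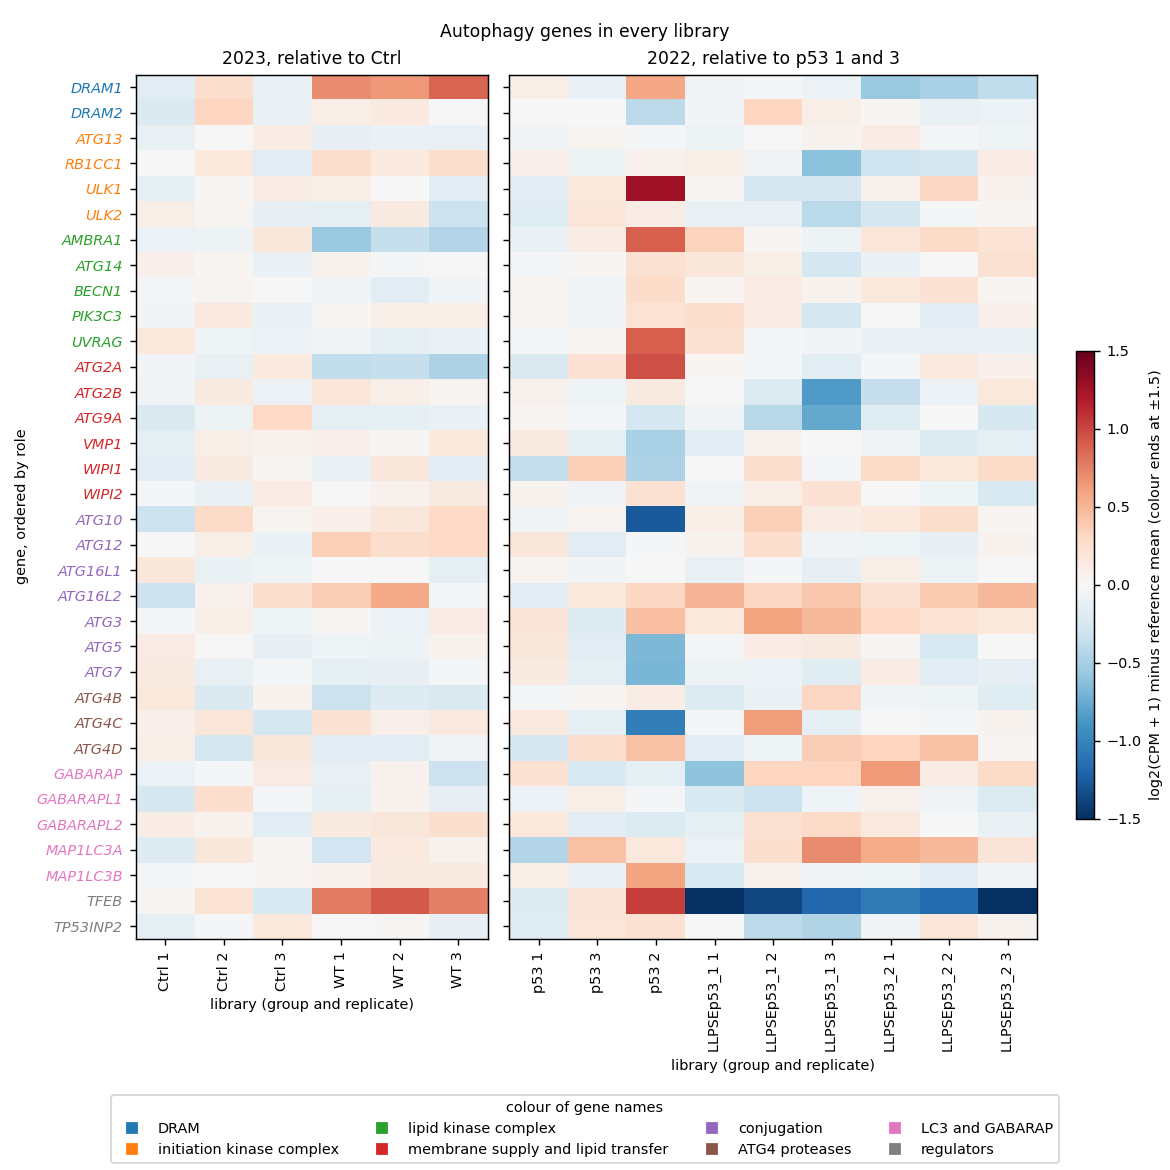
Each cell is the log2(CPM + 1) of a member in a library, minus the mean of the Ctrl libraries (2023, left) or of p53 replicates 1 and 3 (2022, right). Rows are the 34 members, coloured by role, and columns are the 15 libraries. TFEB is red in all 3 WT libraries and dark blue in all 6 LLPSEp53 libraries, colours stop at 1.5 either way, and p53 replicate 2 differs from its group in several rows.

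Wild-type p53 was compared with the control vector to find the autophagy genes whose RNA responds to p53. TFEB rose 2.01-fold and DRAM1 rose 1.69-fold in WT, while AMBRA1, a regulator of the BECN1 complex, fell 1.38-fold and ATG2A, a lipid transfer protein, fell 1.32-fold. Of 34 members, these 4 (11.8%) passed an adjusted p of 0.05 in edgeR's quasi-likelihood test, against 4.12% of the 16156 genes tested. Of all genes, 3.24% were called higher and 0.873% lower. At an unadjusted p under 0.05, 3 members were higher and 3 lower, against 8.94% and 9.22% of all genes. Asking also for at least a 1.5-fold change left DRAM1 and TFEB, against 2.73% of all genes. The other 30 members did not pass, 16 members lay above 0 and 18 below, and the median log2 change was -0.02 for the members and -0.01 for all genes. A level from bulk RNA cannot tell a change in every cell from a change in the share of cells that express a gene. On simulated counts with known changes, the test recovered 74.6% of genes changed 1.5-fold and 97% of genes changed 2-fold in this comparison. Changes were simulated only in genes above a minimum level, so these shares do not describe low members such as GABARAP.

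DRAM1 (ENSG00000136048, chr12:101877351-102012130) was at 34.8, 33.4 and 38.9 CPM in WT replicates 1, 2 and 3 and at 18.6, 25.2 and 19.4 CPM in Ctrl. Every WT library was above every Ctrl library, with means of 35.7 ± 2.89 and 21.1 ± 3.61 CPM (SD, n = 3 each). The log2 change was 0.76 ± 0.13 (SE), with an adjusted p of 0.00101, and DRAM1 kept its call when any 1 library was left out and under each other setting tried (log2 0.68 to 0.91). Its paralog DRAM2, also a lysosomal membrane protein, was at 26.6, 27.7 and 24.7 CPM in WT and 21.2, 31.4 and 22.9 CPM in Ctrl. The DRAM2 groups overlapped, with a log2 difference of 0.06 ± 0.14.

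TFEB (ENSG00000112561, chr6:41683978-41736259) was low in both groups, at 5.68, 6.37 and 5.59 CPM in WT and 2.96, 3.49 and 2.33 CPM in Ctrl. These correspond to 95 to 106 counts per WT library and 43 to 62 per Ctrl library. The groups did not overlap, and the log2 change was 1.01 ± 0.23 (adjusted p 0.0104). Without Ctrl replicate 3, the library with the lowest TFEB level, the log2 change was 0.87 and the adjusted p 0.0823. The other regulator among the members, TP53INP2, which binds LC3 and GABARAP proteins, was at 79.6, 80.6 and 72.8 CPM in WT and 71.9, 78.3 and 88.8 CPM in Ctrl. TP53INP2 differed by -0.04 ± 0.11 on the log2 scale, within the spread of its libraries.

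AMBRA1 was at 49.3, 57.1 and 53.6 CPM in WT and 68.7, 69.1 and 82.4 CPM in Ctrl, with no overlap. Its log2 change was -0.46 ± 0.11 (adjusted p 0.0157). ATG2A was at 78.4, 79.7 and 73.4 CPM in WT and 98.6, 94.2 and 112 CPM in Ctrl, also without overlap, with a log2 change of -0.40 ± 0.11 (adjusted p 0.0336). Both calls were narrower than those of DRAM1 and TFEB. AMBRA1 lost its call without WT replicate 1 (adjusted p 0.146), without WT replicate 3 (0.0747) or without Ctrl replicate 3 (0.147). ATG2A lost its call without any 1 of the WT libraries (0.136, 0.0710 and 0.176) or without Ctrl replicate 3 (0.210).

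**Figure D2:**
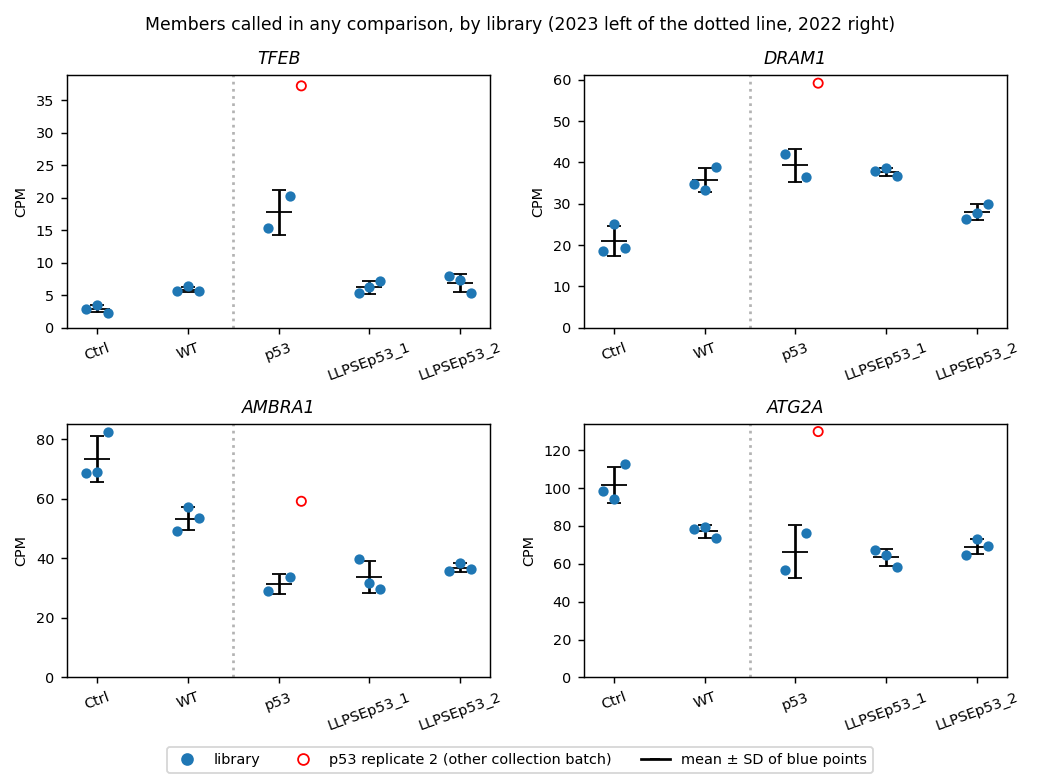
Each point is the CPM of TFEB, DRAM1, AMBRA1 or ATG2A in a library, with the mean and SD of each group in black. TFEB and DRAM1 lie higher in WT than in Ctrl, AMBRA1 and ATG2A lie lower, and TFEB in 2022 lies at 15.3 and 20.2 CPM in p53 and at 5.27 to 7.95 CPM in the LLPSEp53 groups. The open circle is p53 replicate 2, from another collection batch.

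In the initiation complex, 0 of 4 members passed, where 4.12% of all genes did, a share at which a set of 4 may well hold none. ULK1, its kinase, was at 91.0, 86.2 and 76.2 CPM in WT and 77.9, 87.1 and 93.1 CPM in Ctrl, a difference of -0.03 ± 0.11 on the log2 scale. ULK2 differed by -0.11 ± 0.16, with 10.6, 13.1 and 9.29 CPM in WT and 12.7, 12.2 and 10.7 CPM in Ctrl. Neither kinase separated the groups. In the PIK3C3 lipid kinase complex, AMBRA1 passed and 4 members did not, with differences of -0.10 to 0.07. Among the 6 membrane supply genes, ATG2A passed and the other 5 differed by -0.15 to 0.10.

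None of the 7 conjugation genes passed, against 4.12% of all genes, a share at which sets this small may well hold none. ATG12, the ubiquitin-like protein joined to ATG5, was closest, at 66.6, 62.3 and 64.1 CPM in WT and 52.3, 55.3 and 48.3 CPM in Ctrl. The ATG12 groups did not overlap, and the log2 difference of 0.31 ± 0.10 had an adjusted p of 0.105. Among the 3 ATG4 proteases, which process LC3 and GABARAP proteins, ATG4B was at 92.3, 101 and 99.3 CPM in WT and 129.4, 99.22 and 119.8 CPM in Ctrl. The ATG4B groups overlapped at one Ctrl library, with a log2 difference of -0.25 ± 0.11 (adjusted p 0.235). All 5 LC3 and GABARAP genes missed the threshold. MAP1LC3B was at 222, 231 and 232 CPM in WT and 207, 210 and 216 CPM in Ctrl, so the groups did not overlap, but the log2 difference was 0.11 ± 0.10 (adjusted p 0.617, 95% interval -0.10 to 0.33). GABARAPL1 differed by -0.08 ± 0.12, with 120.5, 139.4 and 123.2 CPM in WT and 114, 160 and 133 CPM in Ctrl.

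In all, 5 members were higher in every WT library than in every Ctrl library (DRAM1, TFEB, ATG12, MAP1LC3B and GABARAPL2) and 3 were lower (AMBRA1, ATG2A and BECN1). Of all genes tested, 12% separated the groups upward and 10.5% downward. The plot of log2 changes in WT shows most members within 0.25 of 0.

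**Figure D3:**
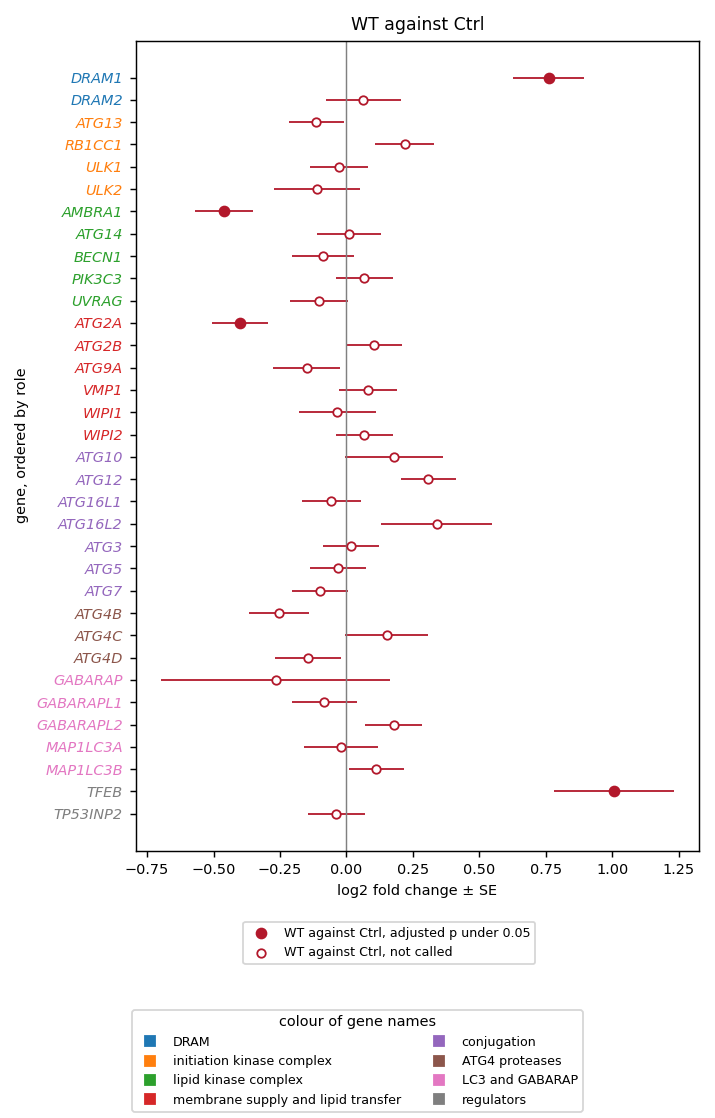
Points give the log2 fold change of each member in WT against Ctrl and bars its standard error, with members in rows by role. The 4 filled points passed an adjusted p of 0.05: DRAM1 and TFEB to the right, AMBRA1 and ATG2A to the left.

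Changes in WT followed the GC content of genes. Across the 11814 genes with a log2 CPM over 2 and a GC value, the log2 change correlated with GC at Pearson r -0.377 and Spearman rho -0.582, and across the 34 members at r -0.177 and rho -0.444. Genes of these lists are not independent replicates, and they share libraries. When each library's trend with GC was removed, ATG2A (63.8% GC) differed by -0.17 ± 0.09 with an adjusted p of 0.457, and AMBRA1 (55.3% GC) by -0.34 ± 0.09 with an adjusted p of 0.0534. DRAM1 (44.8% GC) then changed by 0.70 ± 0.12 and TFEB (62.4% GC) by 1.20 ± 0.23, and both passed (adjusted p 0.00308 and 0.00712). Of the 4 called members, the 2 that rose thus kept their calls and the 2 that fell did not. The GC plot shows the members before and after this step.

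LLPSEp53_1 was compared with p53 to see how expression differed between the constructs. TFEB was 2.83-fold lower in LLPSEp53_1 than in p53 and was the only member called, 1 of 34 (2.94%) against 0.888% of the 17459 genes tested. Lower calls made up 0.836% of all genes and higher calls 0.0515%. At an unadjusted p under 0.05, 2 members were higher (ATG3 and ATG16L2) and 1 lower (TFEB), against 5.72% and 7.34% of all genes. The other 33 members, DRAM1 and the whole conjugation and LC3 machinery among them, did not pass, and the median log2 change of the members was 0.03, against 0.00 for all genes. In simulated data this comparison recovered 8.96% of genes changed 1.5-fold and 68.7% of genes changed 2-fold, so moderate changes would mostly be missed.

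TFEB stood at 15.3 and 20.2 CPM in p53 replicates 1 and 3, and at 5.27, 6.23 and 7.26 CPM in LLPSEp53_1. The highest LLPSEp53_1 library was below the lowest p53 library. The log2 change was -1.503 ± 0.22 (adjusted p 0.00899). It was -1.95 with p53 replicate 2, at 37.2 CPM, counted as a p53 library (adjusted p 0.0284). Without LLPSEp53_1 replicate 2 it was -1.497 with an adjusted p of 0.0618. Without p53 replicate 3 it was -1.29 and TFEB was not called, and without p53 replicate 1 the call was kept. Each of these fits rests on 1 p53 library, assumed to vary like the other groups. The summed level of 14 markers of other cell types was 8.25 and 8.31 CPM in p53, 4.49 to 7.69 CPM in LLPSEp53_1 and 6.10 to 6.60 CPM in LLPSEp53_2. Its part in the TFEB result was not tested.

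DRAM1 was at 42.1 and 36.4 CPM in p53 and at 37.9, 38.7 and 36.7 CPM in LLPSEp53_1. The groups overlapped, with a log2 difference of -0.06 ± 0.14 (95% interval -0.37 to 0.25). DRAM2 was at 22.6 and 22.8 CPM in p53 and at 22.04, 28.74 and 24.12 CPM in LLPSEp53_1, a log2 difference of 0.14 ± 0.16. Neither DRAM gene separated these groups.

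ATG3, the E2-like enzyme of LC3 conjugation, had the smallest p among members that were higher. It was at 56.6 and 43.4 CPM in p53 and 55.4, 75.1 and 69.6 CPM in LLPSEp53_1, a log2 difference of 0.42 ± 0.17 (adjusted p 0.329). ATG16L2, a paralog of the conjugation scaffold ATG16L1, was at 8.12 and 10.4 CPM in p53 and 13.5, 11.7 and 12.5 CPM in LLPSEp53_1 (log2 difference 0.44 ± 0.19, adjusted p 0.347). ATG10, the E2-like enzyme of ATG12 conjugation, was at 11.1 and 11.9 CPM in p53 and 12.45, 15.01 and 12.55 CPM in LLPSEp53_1 (0.21 ± 0.18, adjusted p 0.619). The ATG16L2 and ATG10 groups did not overlap and the ATG3 groups did.

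On the low side, ATG9A, the scramblase of autophagy vesicles, was at 43.5 and 41.6 CPM in p53 and 41.2, 31.6 and 24.6 CPM in LLPSEp53_1 (log2 difference -0.39 ± 0.19, adjusted p 0.414). TP53INP2 was at 79.7 and 103 CPM in p53 and 90.1, 68.6 and 65.9 CPM in LLPSEp53_1 (-0.29 ± 0.17, adjusted p 0.483). ULK1 was at 62.7 and 78.0 CPM in p53 and 71.5, 58.1 and 58.7 CPM in LLPSEp53_1 (-0.17 ± 0.16). Of these, ATG9A alone did not overlap, and the spread of its LLPSEp53_1 libraries was wide. In total, 2 members were higher (ATG10 and ATG16L2) and 2 lower (ATG9A and TFEB) in every LLPSEp53_1 library than in both p53 libraries, where 12.2% and 14.7% of all genes were.

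LLPSEp53_2 gave the same single call. TFEB was 2.59-fold lower than in p53, 1 of 34 members (2.94%) against 1.93% of all genes tested, with 1.83% called lower and 0.103% higher, and 1.92% called with at least a 1.5-fold change. At an unadjusted p under 0.05, 2 members were lower (DRAM1 and TFEB) and 0 higher in edgeR, against 7.94% and 4.89% of all genes. Of the members, 17 lay above 0 and 17 below, and their median log2 change was -0.01, against 0.01 for all genes. Both comparisons use the same p53 libraries, so their TFEB values are not independent.

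In LLPSEp53_2, TFEB was at 7.95, 7.38 and 5.28 CPM, all below the p53 libraries at 15.3 and 20.2 CPM. The log2 change was -1.37 ± 0.22 (adjusted p 0.00555). It was -1.82 with p53 replicate 2 counted as a p53 library (adjusted p 0.0155). Without p53 replicate 3 it was -1.16 and TFEB was not called. The call was kept without p53 replicate 1, and a fit without p53 replicate 1 or 3 again rests on 1 p53 library.

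DRAM1 was at 26.3, 27.7 and 30.1 CPM in LLPSEp53_2, below both p53 libraries at 42.1 and 36.4 CPM. The log2 difference of -0.49 ± 0.14 had a p of 0.00482 before adjustment and 0.127 after. It passed in 3 of 18 alternatives: when each library's GC trend was removed (-0.47, adjusted p 0.0359), when only the groups compared were fitted (-0.49, adjusted p 0.0486), and without LLPSEp53_1 replicate 3 (-0.49, adjusted p 0.0499). It did not pass in the rest, among them the replicate block (-0.49, adjusted p 0.415) and no batch term (-0.71, adjusted p 0.0928). DRAM2 was at 23.2, 20.9 and 21.3 CPM in LLPSEp53_2, a log2 difference of -0.06 ± 0.16 from p53.

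The other members with the smallest p were ATG16L2, AMBRA1 and MAP1LC3A on the high side and VMP1 on the low side. ATG16L2 was at 10.8, 12.4 and 13.3 CPM in LLPSEp53_2 (log2 difference 0.39 ± 0.19, adjusted p 0.407), all above p53. AMBRA1 was at 35.8, 38.5 and 36.4 CPM against 29.1 and 33.9 CPM in p53 (0.23 ± 0.16, adjusted p 0.611). MAP1LC3A, an LC3 gene, was at 19.97, 18.91 and 15.34 CPM against 9.52 and 18.3 CPM (0.38 ± 0.28, adjusted p 0.634), and VMP1 was at 249, 224 and 235 CPM against 284 and 236 CPM (-0.14 ± 0.14, adjusted p 0.743). AMBRA1 did not overlap between the groups, while MAP1LC3A and VMP1 did. In all, 2 members were higher (ATG16L2 and AMBRA1) and 4 lower (DRAM1, TFEB, ATG4B and UVRAG) without overlap, against 15.6% and 17.5% of all genes.

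**Figure D4:**
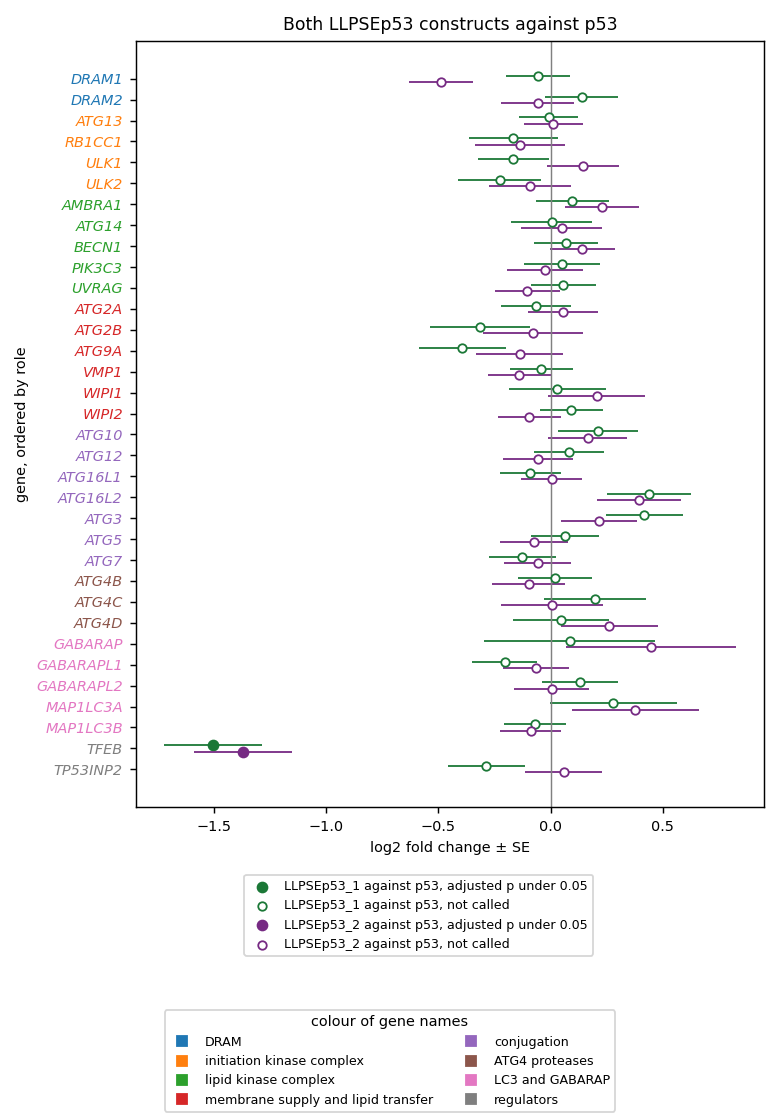
Points give the log2 fold change of each member in LLPSEp53_1 (green) and LLPSEp53_2 (purple) against p53, and bars its standard error, with members in rows by role. TFEB is the filled pair at -1.503 and -1.37, and DRAM1 lies at -0.06 in LLPSEp53_1 and at -0.49 in LLPSEp53_2.

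The autophagosome marker MAP1LC3B did not separate the groups of 2022. It was at 407 and 353 CPM in p53, 325, 394 and 368 CPM in LLPSEp53_1 and 364, 340.0 and 369 CPM in LLPSEp53_2, and differed from p53 by -0.07 ± 0.14 and -0.09 ± 0.14 on the log2 scale. GABARAPL1 was at 99.6 and 113 CPM in p53, 90.3, 84.6 and 101 CPM in LLPSEp53_1 and 111, 102 and 91.4 CPM in LLPSEp53_2. Its log2 differences from p53 were -0.21 ± 0.15 and -0.06 ± 0.15. ULK2 was at 16.0 and 20.8 CPM in p53, 16.8, 17.0 and 13.5 CPM in LLPSEp53_1 and 15.1, 17.9 and 18.8 CPM in LLPSEp53_2, with differences of -0.23 ± 0.18 and -0.09 ± 0.18. In every case the groups overlapped.

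AMBRA1 and ATG2A, called in WT, were not called in either LLPSEp53 construct. AMBRA1 was at 39.7, 31.7 and 29.7 CPM in LLPSEp53_1, a log2 difference of 0.10 ± 0.16 from p53. ATG2A was at 56.6 and 76.2 CPM in p53, 67.1, 64.8 and 58.5 CPM in LLPSEp53_1 and 64.8, 72.9 and 69.6 CPM in LLPSEp53_2, with differences of -0.07 ± 0.16 and 0.06 ± 0.16. With p53 replicate 2 counted as a p53 library, AMBRA1 differed by -0.27 and -0.14 and ATG2A by -0.46 and -0.34 in LLPSEp53_1 and LLPSEp53_2, and none of the 4 passed.

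Comparing the constructs with each other, no member was called in LLPSEp53_2 against LLPSEp53_1, by edgeR or by DESeq2, and 0.372% of all genes were called by edgeR (0.0229% higher, 0.349% lower). At an unadjusted p under 0.05, edgeR had 1 member higher (TP53INP2) and 1 lower (DRAM1), or 2.94% each way, against 2.73% of all genes higher and 4.5% lower. DRAM1 was at 26.3 to 30.1 CPM in LLPSEp53_2 and at 36.7 to 38.7 CPM in LLPSEp53_1, without overlap, with a log2 difference of -0.43 ± 0.13 (adjusted p 0.330). TFEB differed by 0.13 ± 0.21 between the constructs, with a 95% interval of -0.32 to 0.58, so a difference of up to that size is not excluded.

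TP53INP2 was at 88.2, 103 and 94.3 CPM in LLPSEp53_2, against 90.1, 68.6 and 65.9 CPM in LLPSEp53_1 (log2 difference 0.34 ± 0.15, adjusted p 0.683). ULK1 was at 73.3, 86.9 and 72.8 CPM in LLPSEp53_2, all above LLPSEp53_1 (0.31 ± 0.14, adjusted p 0.701). ATG9A was at 37.5, 42.8 and 35.9 CPM (0.26 ± 0.18, adjusted p 0.812), and its groups overlapped. On the low side, WIPI2, a phosphoinositide-binding protein that recruits ATG16L1, was at 195, 186 and 167 CPM in LLPSEp53_2 and 187, 209 and 226 CPM in LLPSEp53_1 (-0.19 ± 0.13, adjusted p 0.812). DRAM2 differed by -0.20 ± 0.14 (adjusted p 0.821). Across the 34 members, the log2 difference between the constructs correlated with GC content (Pearson r 0.555, Spearman rho 0.595). Across all genes with a log2 CPM over 2 the values were 0.067 and 0.128. With the GC trend removed, TP53INP2, ULK1 and ATG9A differed by 0.29, 0.27 and 0.19, and DRAM1, WIPI2 and DRAM2 by -0.44, -0.23 and -0.16. Without overlap, 1 member was higher (ULK1) and 2 were lower (DRAM1 and UVRAG), against 5.97% and 7.03% of all genes. CDKN1A, measured as a check of p53 activity, was lower in LLPSEp53_2 than in LLPSEp53_1 by -0.70 ± 0.12 on the log2 scale (adjusted p 0.0302), a call lost without any 1 of the LLPSEp53_2 libraries (adjusted p 0.103 to 0.197), without LLPSEp53_1 replicate 2 (0.153), or without p53 replicate 1 (0.0528) or 3 (0.0526). It was also lost with a replicate block (0.156), with no batch term (1.0) and with only the groups compared (0.0540).

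Other genes of the pathway were read from 6 lists. In WT against Ctrl, 0 of 13 other core autophagy genes and 0 of 12 autophagy receptors tested passed, against the 4.12% of all genes. Of 14 genes of autophagosome fusion with lysosomes, VPS18, a subunit of the tethering complex, fell (log2 -0.50 ± 0.11, adjusted p 0.00663). Of 24 lysosomal genes, many of them known targets of TFEB, NAGLU, which degrades heparan sulfate, fell (-0.64 ± 0.12, adjusted p 0.00171). Of the lysosomal genes, 18 lay below 0 and 6 above, with a median of -0.09, and of all genes tested 8351 lay below 0 and 7805 above, with a median of -0.01. VPS18 was at 81.6, 89.7 and 80.3 CPM in WT and 120.0, 108 and 128 CPM in Ctrl, and NAGLU at 22.8, 27.7 and 24.3 CPM in WT and 39.0, 40.4 and 37.2 CPM in Ctrl. With the GC trend removed, NAGLU was at -0.43 with an adjusted p of 0.0546, and VPS18 at -0.32 with an adjusted p of 0.0470. VPS18 lost its call without WT replicate 1 (adjusted p 0.0627), WT replicate 3 (0.0567) or Ctrl replicate 3 (0.0690), and its change was under 1.5-fold.

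Of 22 regulators of mTORC1 and AMPK, the kinases that restrain and activate ULK1, 2 rose in WT, against 3.24% of all genes called higher. SESN1, a sestrin that restrains mTORC1 and is a known p53 target, was at 47.5, 35.4 and 37.5 CPM in WT and 11.6, 9.46 and 9.77 CPM in Ctrl (log2 1.96 ± 0.14, adjusted p 1.12e-08). PRKAB1, an AMPK subunit, was at 113, 114 and 104 CPM in WT and 69.6, 76.4 and 89.4 CPM in Ctrl (0.49 ± 0.11, adjusted p 0.0107), a change under 1.5-fold whose call was lost without WT replicate 1 (0.0713). Of 8 related transcription factors and paralogs, TP53INP1, the paralog of TP53INP2 and a known p53 target, rose (1.95 ± 0.13, adjusted p 2.73e-09). TP53INP1 was at 50.6, 44.4 and 45.1 CPM in WT and 10.5, 13.6 and 12.2 CPM in Ctrl, while TP53INP2 did not separate the groups. In the comparisons of 2022, none of the genes of these 6 lists passed. Few genes did in all: 0.888% in LLPSEp53_1 and 1.93% in LLPSEp53_2 against p53, and 0.372% between the constructs. Of the 24 lysosomal genes, 18 lay below 0 in LLPSEp53_1 and 17 in LLPSEp53_2, with a median of -0.10 in each against the same p53 libraries, where 8733 and 8571 of all 17459 genes lay below 0. TFE3 and MITF, the paralogs of TFEB, differed by -0.01 ± 0.14 and -0.56 ± 0.29 in LLPSEp53_1 and by 0.01 ± 0.14 and -0.34 ± 0.29 in LLPSEp53_2 on the log2 scale.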

How the data were processed

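Total RNA of 15 H1299 libraries was sequenced after preparation with an NEBNext Ultra II kit, per the labels' protocols. Per the submitters' processing notes, reads were handled with Trimmomatic 0.39 and STAR 2.7.10a on GRCh38. Which tool, annotation and strand setting made the counts is not given in the sources used here. Raw read counts per gene were deposited, not normalised by the authors, as the values show (whole numbers with unequal totals). LLPSEp53_1 was assigned by sample titles, since its column names lack the construct number.

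Counts were tested with edgeR 4.0.16 in R 4.3.3 (TMM scaling, filterByExpr, quasi-likelihood test, Benjamini-Hochberg over all genes, threshold 0.05), separately for the 6 libraries of 2023 and the 9 of 2022. The 2022 fit had a term for the collection batch. CPM values are TMM-scaled. Positions, exon length and GC content came from GENCODE 29. Since no label calls the replicates separate cultures, the p-values reflect only how far libraries of a group scatter, which may be technical. No 2 libraries of a group agreed within sampling noise. A count of 0 allows up to 3 counts, or 0.156 to 0.222 CPM.

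Alternatives were DESeq2 1.42.0, 2 other scalings, no filter on low counts, a replicate block, GC trend removal (lowess), a 1.5-fold minimum, no batch term, only the groups compared, and each library left out. The test across genes was tested on simulated counts. Values are given in every library for 8 key members, every called member and the 3 members with the smallest p in each direction, and for up to 4 called genes per list. Members and lists were chosen with earlier results of these data known.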

Additional observations from a re-analysis of the deposited data

Results flagged for a closer look

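The p53 library from the other collection batch, replicate 2, carried no weight in the fit with a batch term, and 4 members stood in it at least 1.5-fold above the highest of the other 8 libraries of 2022. ULK1 was at 170.0 CPM, against at most 86.9 CPM elsewhere. ATG2A was at 129.8 CPM, against at most 76.2 CPM. UVRAG, a subunit of the lipid kinase complex, was at 62.35 CPM, against at most 38.5 CPM. TFEB was at 37.23 CPM, against at most 20.2 CPM. In all, 11 members were above and 8 below all other libraries of 2022, and ATG10 (4.21 CPM) and ATG4C (6.86 CPM) were lower than the lowest of them by at least 1.5-fold. Of all 17459 genes tested, 31.8% were above and 27.5% below the other 8 libraries, 11.7% and 7.58% by at least 1.5-fold, so the members' counts were near those of all genes. The p53 targets CDKN1A and MDM2 were also higher in this library (723 and 368 CPM) than in p53 replicates 1 and 3 (284.0 and 286 CPM, and 202 and 165 CPM). With 1 library in that batch, batch and library cannot be told apart.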

How the results depend on the processing

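No result changed direction while called. In WT against Ctrl, 4 members were called under DESeq2, both other scalings and no filter. The count was 2 with the GC trend removed or a 1.5-fold minimum (DRAM1 and TFEB), and 1 to 6 with a library left out, 1 without Ctrl replicate 3 and 2 without WT replicate 1 or WT replicate 3. In LLPSEp53_1 against p53 it was 1 under the other alternatives, and 0 to 1 with a library left out. In LLPSEp53_2 against p53 it was 2 with the GC trend removed or only the groups compared (DRAM1 and TFEB), and 0 to 2 with a library left out. Between the constructs it was 0 throughout.

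With replicate number as a block, 5 members were called in WT against Ctrl, ATG12 added, and 1, 1 and 0 in the comparisons of 2022. Same-numbered WT and Ctrl libraries deviated together at r = 0.20, 0.42 and 0.04, and differently numbered ones at -0.40 to 0.26. These values do not settle whether the numbers pair samples, and the main fit has no replicate block. The share of all genes called ranged from 2.1% to 10.2% in WT against Ctrl, highest with the replicate block. It ranged from 0% to 3.15% and from 0.519% to 6.14% for LLPSEp53_1 and LLPSEp53_2 against p53, and from 0.0172% to 1.1% between them. TFEB had 43 to 129 counts per library outside p53, which limits its precision.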
